A study of Mus musculus with 19 samples.

Results

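The D-type cyclins, the kinases CDK4 and CDK6 and the retinoblastoma (Rb) pathway were followed through 2 mouse models of fibrolamellar carcinoma. This cancer of the liver carries a fused gene that joins the chaperone DNAJB1 to the catalytic part of protein kinase A (PKA). The members were 10 genes chosen by symbol: Ccnd1, Ccnd2, Ccnd3, Cdk4, Cdk6, Cdk2, Ccne1, Rb1, Cdkn1b and Cdkn2c. Each had 1 row among the 13549 genes of the embryo table and 1 row, matched by Ensembl ID, among the 17606 genes of the tumour tables. All 10 passed the filter on low values in both experiments.

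Livers were taken at embryonic day 18.5 from 5 control embryos and 4 fusion embryos. In the fusion embryos, Alb-Cre, a Cre recombinase under the albumin promoter, had switched on a Rosa26 LSL-DNAJB1-PKA-GFP allele, so the fusion was driven in albumin-expressing cells. The labels do not say whether control embryos carried Cre or the silent transgene alone. Tumours were grown from FL8, 1 line of mouse cells from these models, set in capsules of methacrylated gelatin and placed under the skin of mice of the NSG strain, which lack mature T, B and natural killer cells but keep macrophages and stroma. Mice were randomized at a mean tumour size of 75 mm3 to the methocel vehicle or to palbociclib, an inhibitor of CDK4 and CDK6, at 75 mg/kg by gavage for 3 days with 4 days off. There were 5 tumours in each treatment group, and neither the time of collection nor any repeat of the cycle is given. The libraries are labelled as separate samples of a group. The labels do not say whether any came from the same animal or litter, and p-values measure the spread between these samples.

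D-type cyclins carry growth signals to the cell cycle: each binds CDK4 or CDK6, and the active pair phosphorylates the Rb protein. Unphosphorylated Rb holds E2F factors in check; once it is phosphorylated, E2F factors turn on genes of DNA replication, among them cyclin E, which with CDK2 phosphorylates Rb further. p27, the product of Cdkn1b, restrains cyclin E-CDK2, and p18, the product of Cdkn2c, is an INK4 protein that binds CDK4 and CDK6. In adult liver, cyclin D1 is known as the D-type cyclin that rises when hepatocytes re-enter the cycle, and cyclin D3 is abundant in erythroid precursors, which fill the fetal liver.

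Short stretches of promoter are shown because palbociclib acts on the step above E2F and PKA acts on CREB, so that E2F and CREB motifs are where the pathway and the fusion could be read in sequence. A RefSeq table of promoters (GRCm38.p6) held 9 start sites of 7 members; Ccnd1, Ccnd2 and Rb1 were not matched. In the 250 bases before each start, the CREB motif TGACGTCA on either strand was in 0 of the 9 windows and in 1.55% of 32851 windows of all genes. Its half-site TGACG, which the full motif contains, was in 5 of the 9 windows, of Cdk6, Cdk4, Cdk2 and both starts of Ccnd3, and in 17.8% of all windows. An E2F motif (TTTCCCGC, TTTCGCGC, TTTGCCGC or TTTGGCGC, either strand) was in 1 of the 9, that of Cdk2, and in 1.86% of all windows. Of 26 known E2F target genes with a window, 11 also held it. Rbl1 and Cdc6 are printed as the 2 of these that were higher in fusion livers at an adjusted p under 0.05 in edgeR. Of the rest, Cdk1, Mcm5, Mcm6, Orc1, Pola1 and Uhrf1 had positive fold changes and Cdc25a, E2f7 and Mcm7 negative ones, none past that threshold. The Cdk2 and Rbl1 stretches lie on the minus strand of chr10:128705158-128705217 and chr2:157204535-157204578, the Cdc6 stretch on the plus strand of chr11:98907987-98908046, and the Ccnd3 stretch on the plus strand of chr17:47593413-47593466. Each is written 5′ to 3′ on the strand of its gene, with the E2F match in capitals in the first 3 lines and the CREB half-site in capitals in the last.
Cdk2: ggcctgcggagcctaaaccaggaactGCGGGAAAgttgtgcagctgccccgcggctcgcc
Rbl1: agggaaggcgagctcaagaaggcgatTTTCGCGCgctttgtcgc
Cdc6: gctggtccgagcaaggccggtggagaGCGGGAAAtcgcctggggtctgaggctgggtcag
Ccnd3: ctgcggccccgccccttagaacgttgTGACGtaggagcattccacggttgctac
The first base in capitals lies 140, 18, 138 and 28 bases before the start site in the 4 lines. Each is a match of letters in a window, and no binding was measured.

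Depth was 7660736 to 45591301 counts in the embryo libraries and 2955729 to 43141761 reads in the tumour libraries. Ribosomal protein transcripts were 9.72% to 10.1% of all counts in controls 1 and 2 and fusions 8 and 9 and 6.19% to 7.88% in the other 5 embryo libraries. Controls 1 and 2 and fusions 6, 7 and 8 expressed Xist and were female. Vehicle tumour 1 had 46.6% mitochondrial counts against 1.24% to 6.47% in the other 9 tumours, and vehicle tumour 5 was the shallowest library. Hepatocyte markers were abundant in all libraries, with summed levels of 172400 to 243000 CPM in embryos and 41970 to 134100 CPM in tumours. Because these are bulk samples, fewer cells of a type and less RNA per cell cannot be told apart.

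Cyclin D3 made up most of the D-type cyclin transcript in the livers, and on the main length scale cyclin D1 made up most of it in the tumours. Levels of different genes were set side by side as CPM per kilobase of exon, using the union of exons in GENCODE M21. On that scale Ccnd3 was 88.6% ± 4.08 (SD, n = 5) of the summed level of the 3 D-type cyclins in control livers and 89.4% ± 3.12 (SD, n = 4) in fusion livers. Ccnd1 was 9.31% ± 3.20 and 8.78% ± 2.32 of it in the same groups, and Ccnd2 2.05% ± 0.880 and 1.87% ± 0.889. Every liver had Ccnd3 at 84.1% or more.

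In FL8 tumours Ccnd1 was 70.3% ± 8.97 (SD, n = 5) of the sum with vehicle and 81.2% ± 2.73 (SD, n = 5) with palbociclib. The vehicle tumours ran from 58.6% in tumour 2 to 82.6% in tumour 4, and the palbociclib tumours from 78.5% to 85.0%. These ranges overlap, since vehicle tumour 4 lay within the palbociclib range. Ccnd3 was 27.8% ± 9.60 with vehicle and 17.5% ± 2.33 with palbociclib. Dividing by the longest transcript in place of the exon union, a choice made after seeing the data, gave Ccnd1 57.8% and 71.1% and Ccnd3 40.4% and 27.6% in the tumours, and Ccnd3 93.1% and 93.6% in the livers. On that length Ccnd3 exceeded Ccnd1 in vehicle tumour 2 (54.6% against 44.2%), and they were close in vehicle tumour 5 (48.7% against 51.3%). The embryo libraries were of poly-A RNA and the tumour libraries of total RNA, and their tables were counted and normalized separately. The difference in make-up between liver and tumour therefore carries no test.

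**Figure D1:**
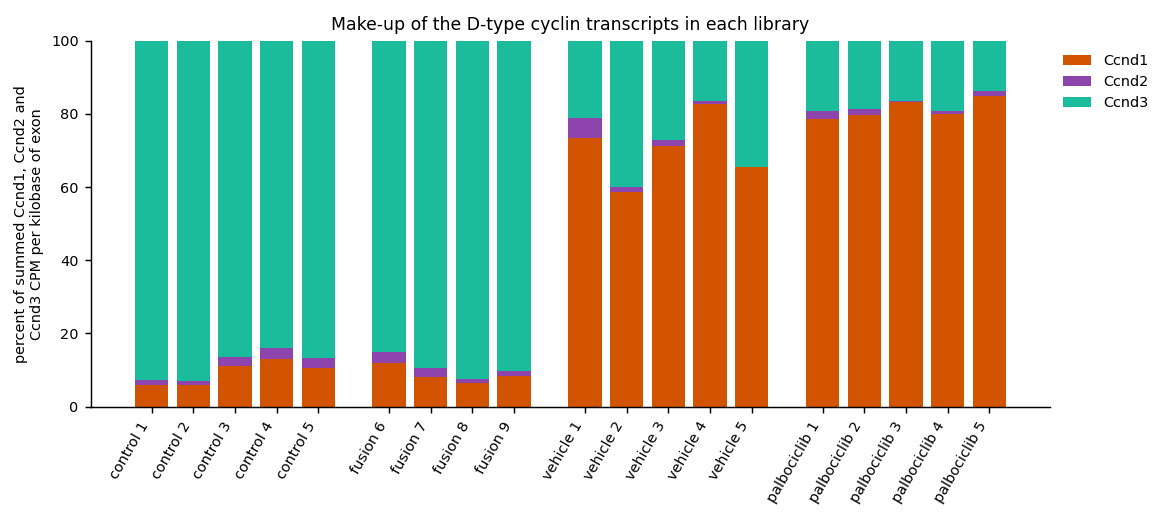
Share of Ccnd1, Ccnd2 and Ccnd3 in their summed level, as percent of CPM per kilobase of exon, with 1 bar per library: 5 control and 4 fusion livers, then 5 vehicle and 5 palbociclib tumours. Ccnd3 fills at least 84.1% of every liver bar, and Ccnd1 fills 58.6% to 85.0% of every tumour bar.

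Among all 10 members, the order of levels per kilobase in control livers began with Ccnd3 at 67.2 ± 21.1 CPM per kilobase (SD, n = 5), Cdk4 at 40.0 ± 4.58 and Ccne1 at 16.2 ± 2.61. Cdkn1b followed at 10.3 ± 0.743. Ccnd1 at 6.49 ± 0.773, Cdk2 at 5.86 ± 0.875 and Rb1 at 5.20 ± 0.573 were neighbours within their spread. Cdkn2c at 3.34 ± 1.41, Cdk6 at 2.09 ± 0.317 and Ccnd2 at 1.40 ± 0.311 were lowest, and each overlapped its neighbour in range. Fusion livers had the same 4 genes on top and the same 3 at the bottom, with Cdk2 at 7.09 ± 0.858, Rb1 at 6.98 ± 0.539 and Ccnd1 at 5.98 ± 0.525 CPM per kilobase (SD, n = 4) in the middle. In vehicle tumours Ccnd1 at 15.5 ± 6.11 and Cdk4 at 14.6 ± 2.30 CPM per kilobase (SD, n = 5) shared the top within their spread. With palbociclib Ccnd1 stood at 27.3 ± 7.11 and Cdk4 at 13.9 ± 1.02 CPM per kilobase (SD, n = 5), and these ranges did not overlap. The order depended in part on the length used: by longest transcript Cdk2, at 11.2 ± 1.67 in control and 13.5 ± 1.64 in fusion livers, ranked above Cdkn1b at 10.3 in both, and Cdk4 at 23.2 ± 3.65 ranked above Ccnd1 at 19.5 ± 7.69 in vehicle tumours. By exon union, Cdk4 exceeded Cdk6 per kilobase in every library, on average 19.6-fold in control livers, 24.5-fold in fusion livers, 39.9-fold in vehicle tumours and 34.98-fold in palbociclib tumours.

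The first comparison asks how the pathway differs between livers with and without the fusion. Of the 10 members, 1 passed an adjusted p of 0.05 over all genes: Rb1, which encodes the Rb protein itself, was higher in fusion livers. In the same fit 12.8% of 13316 genes passed in either direction and 5.99% passed as higher, so 1 of 10 is close to the background. The median log2 fold change of the members was 0.03, beside -0.01 over all genes tested. Levels in this comparison are CPM after TMM scaling, and fold changes are fusion over control from edgeR's quasi-likelihood test.

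Ccnd1 encodes cyclin D1 (chr7:144929931-144939925, minus strand, GRCm38). In controls 1 to 5 it stood at 27.6, 26.6, 32.1, 35.7 and 30.6 CPM, and in fusions 6 to 9 at 31.4, 26.5, 25.98 and 28.7 CPM. The groups overlapped over most of their range, and the lowest library of each was at nearly the same level. The log2 fold change was -0.12 ± 0.12 (SE; adjusted p = 0.544 in edgeR). Ccnd2, which encodes cyclin D2 (chr6:127125162-127152193, minus strand), was at 10.9, 9.34, 14.1, 16.5 and 14.8 CPM in controls and 15.2, 14.9, 7.74 and 9.03 CPM in fusion livers. Its 4 lowest libraries were the 4 with the high ribosomal protein share, at 7.74 to 10.9 CPM against 14.1 to 16.5 CPM in the other 5. Between genotypes the log2 fold change was -0.17 ± 0.23 (SE; adjusted p = 0.677 in edgeR).

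Ccnd3, the gene of cyclin D3 (chr17:47505051-47599691, plus strand), had the highest CPM of the members. Controls 1 to 5 read 798.5, 785.0, 466.4, 433 and 464 CPM, and fusions 6 to 9 read 414, 540.2, 684 and 580 CPM. Both genotypes split in the same way. The 4 libraries with the high ribosomal protein share held 580 to 799 CPM and the other 5 held 414 to 540.2 CPM, with no overlap. The summed level of 11 haematopoietic markers moved with it, at 3649 to 4439 CPM in the 4 and 2833 to 3419 CPM in the 5, while 4 other marker lists were lower in the 4, also with no overlap. Hepatocyte markers summed to 172400 to 195800 CPM in the 4 and 215300 to 243000 CPM in the 5, and macrophage markers to 618 to 754 and 813 to 896 CPM. Fibroblast and matrix markers were at 256 to 304 and 310.3 to 505 CPM, and endothelial markers at 171 to 186 and 203 to 277 CPM. The part of these cell types in the Ccnd3 level was not tested. Between genotypes the log2 fold change was -0.09 ± 0.23 (SE; adjusted p = 0.837 in edgeR). Its sign was positive, at 0.069, within the 5 libraries with the low share.

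Cdk4, the kinase partner with the higher level (chr10:127063534-127067920, plus strand), was at 129, 106, 133, 136 and 146 CPM in controls and 173, 164, 123 and 117 CPM in fusion livers. Fusions 6 and 7 were above every control, while fusions 8 and 9 were within the control range, and Cdk4 was also lower in each of the 4 libraries with the high ribosomal protein share (106 to 129 CPM) than in the other 5 (133 to 173 CPM). The log2 fold change was 0.15 ± 0.15 (SE; adjusted p = 0.552 in edgeR). Cdk4 shares 641 exonic bases, 19.7% of its exons, with Tspan31 on the opposite strand, and counting by strand is not stated. Tspan31 gave a log2 fold change of 0.53 in livers (edgeR adjusted p = 0.104) and 0.70 in tumours (limma adjusted p = 0.953), each larger than that of Cdk4. Cdk6 (chr5:3341485-3531008, plus strand) ran from 22.4 to 34.6 CPM in controls and from 23.1 to 27.5 CPM in fusion livers, which lay inside the control range. Control 1 set the low end of that range, and controls 2 to 5, at 28.8 to 34.6 CPM, lay above every fusion liver. The log2 fold change of Cdk6 was -0.20 ± 0.13 (SE, adjusted p = 0.345 in edgeR), and -0.27 without control 1 (edgeR adjusted p = 0.144).

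Rb1 (chr14:73183673-73325822, minus strand) was at 29.7, 36.1, 27.7, 29.3 and 33.6 CPM in controls 1 to 5 and at 43.2, 37.9, 45.6 and 41.3 CPM in fusions 6 to 9. The lowest fusion library lay above the highest control, a gap that 8.37% of genes tested showed in this direction, 8.15% in the other and 16.5% in either. Mean levels were 31.3 ± 3.45 CPM (SD, n = 5) and 42.0 ± 3.24 CPM (SD, n = 4), and the log2 fold change was 0.43 ± 0.11 (SE; adjusted p = 0.0281 in edgeR), or 1.345-fold. The difference was as large within each ribosomal split, at 0.43 in the 5 libraries with the low share (edgeR adjusted p = 0.0308) and 0.42 in the 4 with the high share (edgeR adjusted p = 0.0773). Among the 5 with the low share, every control was male by Xist and every fusion liver female. Genotype and sex cannot be told apart in that fit. The call was lost with sex as a covariate (0.40; edgeR adjusted p = 0.0637) and when control 3 or 4 or fusion 6, 8 or 9 was left out (edgeR adjusted p = 0.0502 to 0.0777). Over all 9 fits that left out 1 library, 4 of which kept the call, the log2 fold change was between 0.39 and 0.49. Rb1 shares 488 exonic bases with Rcbtb2 and 408 with Lpar6 on the opposite strand. Markers of biliary and progenitor cells moved with genotype too, at a summed 57.2 to 94.6 CPM over 6 genes in controls and 25.99 to 51.3 CPM in fusion livers, none of them at 0, and their part in the Rb1 difference was not tested. The neighbours of Rb1 gave log2 fold changes of 0.13 (edgeR adjusted p = 0.575) and 0.01 (edgeR adjusted p = 0.977).

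Ccne1, the gene of cyclin E1 (chr7:38097984-38107534, minus strand), was between 32.7 and 51.4 CPM in controls and between 39.5 and 51.4 CPM in fusion livers, with a log2 fold change of 0.06 ± 0.14 (SE; adjusted p = 0.797 in edgeR). Cdk2, its kinase (chr10:128697939-128705031, minus strand), stood at 30.3, 32.4, 37.5, 44.2 and 38.0 CPM in controls and at 43.3, 41.2, 51.8 and 40.0 CPM in fusion livers. Control 4 was the library that bridged the groups: the other 4 controls lay below every fusion liver. The log2 fold change was 0.27 ± 0.13 (SE; adjusted p = 0.201 in edgeR), and within the 4 libraries with the high ribosomal protein share it was 0.56 (edgeR adjusted p = 0.0347). That fit of 4 libraries called 2589 of 12930 genes. Within the other 5 libraries the log2 fold change of Cdk2 was 0.084 (edgeR adjusted p = 0.627).

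The 2 inhibitor genes behaved differently in spread. Cdkn1b (chr6:134920401-134925513, plus strand) had nearly the same mean in both groups, at 47.0 ± 3.38 CPM (SD, n = 5) in controls and 47.0 ± 5.14 CPM (SD, n = 4) in fusion livers, with a log2 fold change of 0.00 ± 0.11 (SE; adjusted p = 0.999 in edgeR). Cdkn2c (chr4:109660876-109667189, minus strand) read 5.71, 5.16, 8.13, 12.5 and 13.4 CPM in controls and 19.4, 11.7, 9.81 and 8.14 CPM in fusion livers. Fusion 6 was the highest library and controls 1 and 2 the lowest, while the rest were mixed. Its log2 fold change was 0.44 ± 0.32 (SE; adjusted p = 0.390 in edgeR). With the ribosomal split as a covariate it was 0.56 (edgeR adjusted p = 0.0293), and within the 4 libraries with the high share 0.72 (edgeR adjusted p = 0.0432). Over all genes, those fits called 4345 of 13316 and 2589 of 12930. Within the other 5 libraries the log2 fold change was 0.48 (edgeR adjusted p = 0.178), and with sex as a covariate 0.66 (edgeR adjusted p = 0.306). Without fusion 6 it was 0.12 (edgeR adjusted p = 0.844).

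**Figure D2:**
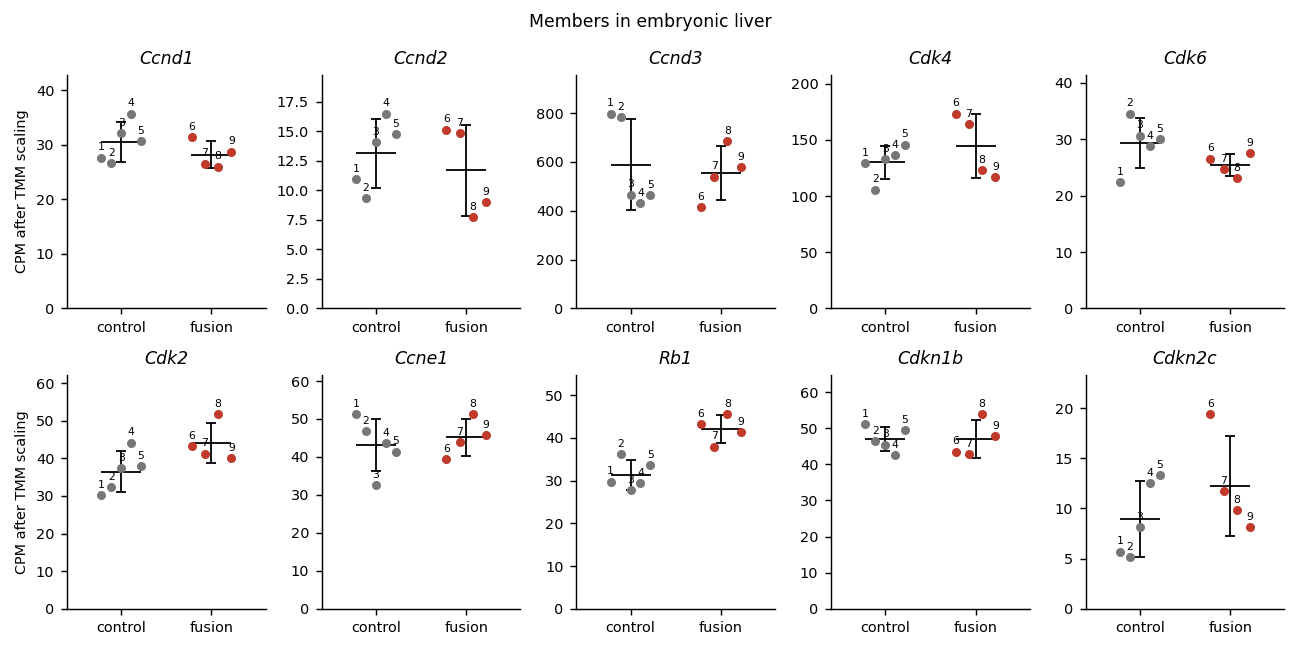
Level of each member in the 9 livers, in CPM after TMM scaling on linear axes from 0, with points numbered by library and black bars for the mean ± SD of 5 controls and 4 fusion livers. Rb1 is the 1 panel in which the groups do not overlap, and the Ccnd3 panel splits inside each genotype, with controls 1 and 2 and fusions 8 and 9 at 580 to 799 CPM.

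Other genes of the pathway came from 2 lists that share 8 genes. Of 35 Rb pathway partners (Rb relatives, E2F factors, other cyclins, kinases and inhibitors, and subunits of the DREAM complex that works with the Rb relatives), 32 were tested, 2 passed as higher and 1 as lower. The background was 5.99% higher and 6.81% lower. Rbl1, which encodes the Rb relative p107, rose from 15.8 ± 2.48 CPM (SD, n = 5) to 22.5 ± 2.30 CPM (SD, n = 4) with no overlap (log2 fold change 0.51; edgeR adjusted p = 0.0318). Ccne2, the gene of cyclin E2, rose from 16.3 ± 4.61 to 25.9 ± 2.98 CPM with overlapping groups (0.67; edgeR adjusted p = 0.0402). Cdkn1a, the gene of the CDK inhibitor p21, fell from 62.4 ± 8.54 to 31.2 ± 6.49 CPM with no overlap (0.499-fold; edgeR adjusted p = 0.00267). The median of the 32 was 0.16, beside -0.01 over all genes.

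Of 32 E2F targets, all tested, 5 passed as higher and 0 as lower. At an unadjusted p of 0.05, 9 were higher and 0 lower in edgeR, beside 13.9% of all genes higher and 15.4% lower. DESeq2 called 6 higher and 0 lower, beside 2489 of 13549 genes called in either direction. The 5 were Rbl1, Ccne2, Mcm4, Ezh2 and Cdc6. Mcm4, a subunit of the replicative helicase, was at 77.6 ± 9.29 and 111 ± 7.46 CPM (0.52; edgeR adjusted p = 0.0165). Ezh2, a histone methyltransferase, was at 42.0 ± 3.28 and 57.1 ± 3.50 CPM (0.44; edgeR adjusted p = 0.0163), and Cdc6, which loads the helicase, at 34.8 ± 4.23 and 47.0 ± 6.15 CPM (0.44; edgeR adjusted p = 0.0452). In sign, 27 of 32 were positive, beside 48.2% of all genes, and their median was 0.20. Neither count was steady: without any 1 of controls 1, 2, 3 and 5 or fusions 6, 7 and 8, the calls fell to 2 E2F targets and 1 Rb pathway partner. Sex as a covariate left 3 E2F targets and 2 partners. Calls over all genes were 1704 in the main fit, 1284 with sex as a covariate and 969 to 1581 without 1 library. Within the 4 libraries with the high ribosomal protein share, 4 E2F targets passed as higher and 3 as lower with a median of 0.08, against 6 and 0 with a median of 0.25 within the other 5. Over all genes, these fits called 2589 of 12930 and 2950 of 13524 in either direction. In the other 5 every control was male and every fusion liver female, so genotype and sex cannot be told apart there. Of the 28 promoter windows found for 26 of the E2F targets, 11 held the E2F motif, 39.3% beside 1.86% of all windows. The list's genes were chosen as known E2F targets.

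The second comparison asks what palbociclib does to the transcripts of its own targets and their pathway in FL8 tumours. No member passed an adjusted p of 0.05 in limma on log2(CPM + 1), where 0% of 12829 genes passed, and edgeR on the recovered reads gave 0 members and 0 genes as well. DESeq2 on those reads called 8 genes, none of them a member. At an unadjusted p of 0.05, 2 of the 10 were reached, Ccnd1 and Cdkn2c, both higher, beside 4.57% of all genes, 3.73% higher and 0.842% lower. The median of the members was 0.16 and that of all genes 0.14. That upward offset of all genes was 0.00 with TMM factors, so fold changes here are best read against it. Levels are CPM as deposited, and fold changes are palbociclib over vehicle on the log2(CPM + 1) scale, where changes of low genes appear smaller than they are.

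Ccnd1 had the largest fold change of the members in the limma fit of all 10 tumours. Cdkn2c exceeded it without vehicle tumour 5 (0.68 against 0.63) and without vehicle tumours 1 and 5 (0.65 against 0.63), and with DESeq2 Rb1, at -0.62, was as far from 0 as Ccnd1, at 0.61. Vehicle tumours 1 to 5 held 79.3, 62.7, 73.5, 114 and 34.8 CPM, and palbociclib tumours 1 to 5 held 99.5, 113, 142, 107 and 181 CPM. As deposited, vehicle tumour 4 lay above palbociclib tumours 1, 2 and 4, and the other 4 vehicle tumours lay below every palbociclib tumour. Under 2 other scalings vehicle tumour 1 lay above palbociclib tumours 1, 2 and 4. With TMM factors it was at 126.3 CPM against 87.1, 119.0 and 102.1 CPM. Without mitochondrial genes it was at 148.6 CPM against 102.7, 118.3 and 109.5 CPM. Means were 72.95 ± 28.8 CPM (SD, n = 5) and 128 ± 33.5 CPM (SD, n = 5), and the log2 fold change was 0.87 ± 0.29 (SE; limma adjusted p = 0.953). Leaving out 1 tumour at a time kept it between 0.63 and 1.05, with limma adjusted p-values of 0.632 to 1.00. The lowest vehicle value came from tumour 5, the shallowest library, and rests on 103 reads. Ccnd1 shares 1100 exonic bases with LTO1 on the opposite strand, which gave a log2 fold change of 0.25 (limma adjusted p = 0.958).

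For the other D-type cyclins the sign of the fold change depended on the setting. Ccnd3 was at 42.4, 79.9, 52.1, 42.5 and 34.2 CPM with vehicle and at 45.5, 49.1, 52.1, 47.9 and 55.0 CPM with palbociclib. The palbociclib tumours sat close together inside the wider vehicle range. Its log2 fold change was 0.05 ± 0.25 (SE; limma adjusted p = 0.984), and it was -0.10 with TMM factors. Ccnd2 was low in both groups, from 0 to 11.99 CPM with vehicle and from 1.32 to 5.62 CPM with palbociclib. The vehicle range was set by tumour 1 at 11.99 CPM, and tumour 5, at 0 reads, could hold up to 1.01 CPM. For Ccnd2 the log2 fold change was 0.27 ± 0.54 (SE; limma adjusted p = 0.966), and it was 0.82 with a pseudocount of 0.1, 0.72 without vehicle tumour 1 and -0.21 without vehicle tumour 5.

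Neither kinase that palbociclib inhibits differed in transcript level beyond the spread. Cdk4 stood at 41.3, 53.9, 39.2, 56.2 and 47.4 CPM with vehicle and at 45.7, 44.0, 45.0, 41.0 and 50.1 CPM with palbociclib. All 5 palbociclib tumours were inside the vehicle range, and the log2 fold change was -0.06 ± 0.21 (SE; limma adjusted p = 0.979). Cdk6 was between 3.38 and 8.64 CPM with vehicle and between 3.06 and 8.73 CPM with palbociclib (0.16 ± 0.34, SE; limma adjusted p = 0.966). Ccnd1 per Cdk4, a ratio of CPM, was 0.736 to 2.03 with vehicle and 2.18 to 3.61 with palbociclib, so the groups did not overlap in that ratio. It was computed after both levels were known and carries no test. In livers the same ratio was 0.236 ± 0.0233 (SD, n = 5) in controls and 0.200 ± 0.0372 (SD, n = 4) with the fusion.

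Rb1 was at 8.59, 6.64, 5.00, 7.63 and 4.06 CPM with vehicle and at 4.68, 2.88, 4.58, 5.26 and 7.97 CPM with palbociclib. Palbociclib tumour 5 was as high as the upper vehicle tumours and the other 4 were in the lower part of the vehicle range or, for tumour 2, under it. For Rb1 the log2 fold change was -0.30 ± 0.32 (SE; limma adjusted p = 0.953). Ccne1 held 5.91, 11.2, 8.55, 17.4 and 2.71 CPM with vehicle and 10.6, 12.8, 16.1, 14.6 and 9.21 CPM with palbociclib. The palbociclib tumours filled the upper part of the vehicle range, whose highest and lowest values were tumours 4 and 5. Its log2 fold change was 0.60 ± 0.37 (SE; limma adjusted p = 0.953), and it was 0.28 without vehicle tumour 5 and 0.06 without vehicle tumours 1 and 5. Cdk2 ran from 8.46 to 21.0 CPM with vehicle and from 6.67 to 17.3 CPM with palbociclib (-0.11 ± 0.33, SE; limma adjusted p = 0.978).

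Of the inhibitors, Cdkn2c was the 1 member whose tumour groups did not overlap as deposited. Vehicle tumours read 8.21, 9.73, 8.80, 8.72 and 11.5 CPM, and palbociclib tumours read 13.7, 17.2, 17.5, 12.7 and 13.6 CPM. Every palbociclib tumour was above every vehicle tumour, as for 0.834% of genes tested, while 0.101% had the opposite gap and 0.935% either. The means of 9.39 ± 1.301 and 14.9 ± 2.24 CPM (SD, n = 5 each) gave a log2 fold change of 0.62 ± 0.25 (SE; limma adjusted p = 0.953), positive in each alternative run (0.48 to 0.68). The gap closed under other scalings. With TMM factors the highest vehicle tumour was at 13.1 and the lowest palbociclib tumour at 11.96 CPM, and without mitochondrial genes they were at 15.4 and 13.1 CPM. Cdkn1b was between 20.6 and 49.1 CPM with vehicle and between 27.4 and 45.2 CPM with palbociclib, with a log2 fold change of 0.17 ± 0.27 (SE; limma adjusted p = 0.961).

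**Figure D3:**
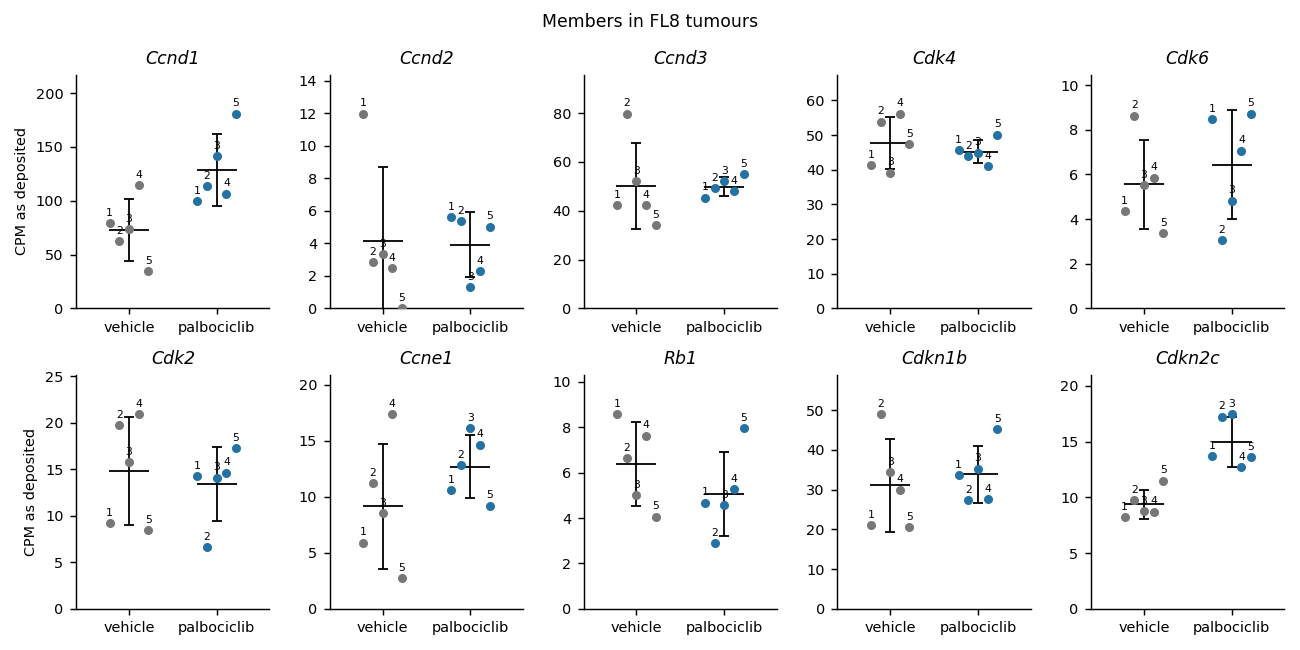
Level of each member in the 10 FL8 tumours, in CPM as deposited on linear axes from 0, with points numbered by tumour and black bars for the mean ± SD of 5 tumours per treatment. Cdkn2c shows no overlap (8.21 to 11.5 against 12.7 to 17.5 CPM), and Ccnd1 overlaps through vehicle tumour 4 at 114 CPM.

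**Figure D4:**
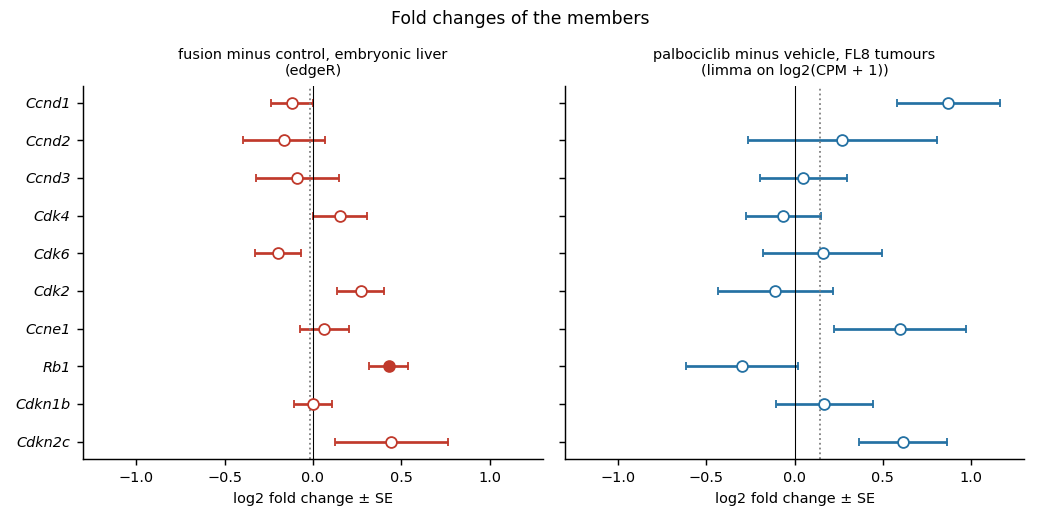
Log2 fold change ± SE of each member, fusion over control in livers (edgeR, left) and palbociclib over vehicle in tumours (limma, right), with filled points for an adjusted p under 0.05 and dotted lines at the median of all genes. Rb1 in livers, at 0.43, is the 1 filled point, and Ccnd1 in tumours, at 0.87, is the point farthest from 0.

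Of the 33 Rb pathway partners tested in tumours, 0 passed the adjusted threshold in limma, edgeR or DESeq2, and 3 were at an unadjusted p under 0.05, all higher, beside 3.73% of all genes higher and 0.842% lower. These were Cdk1, the mitotic kinase, at 12.4 ± 6.69 and 29.3 ± 7.36 CPM (log2 fold change 1.32; limma adjusted p = 0.953, no overlap), Ccna2, the gene of cyclin A2, at 8.67 ± 4.06 and 19.3 ± 6.36 CPM (1.13; limma adjusted p = 0.953), and Cdkn2d, an INK4 inhibitor gene like Cdkn2c, at 3.42 ± 2.38 and 8.05 ± 2.45 CPM (1.27; limma adjusted p = 0.953). The smallest p-values among negative fold changes were those of Cdkn2b at -0.33, Cdkn2a at -0.26 and Cdkn1c at -0.33 (limma adjusted p = 0.953 to 0.958). Cdkn2b and Cdkn2a, also INK4 genes, were at 54.6 ± 21.5 and 41.4 ± 11.4 CPM and at 8.22 ± 0.967 and 6.91 ± 2.45 CPM in the vehicle and palbociclib groups. The list's median was 0.19, beside 0.14 for all genes.

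Of the 29 E2F targets tested in tumours, 0 passed the adjusted threshold in the same 3 tools, 10 were at an unadjusted p under 0.05 in limma, all higher, beside 3.73% of all genes. A positive fold change was seen for 28 of them and for 68.8% of all genes. Their median was 0.58, beside 0.14 over all genes. It was 0.43 beside 0.00 with TMM factors, and 0.50 beside -0.05 without vehicle tumours 1 and 5. Rrm2, a subunit of the enzyme that makes deoxynucleotides, stood at 16.1 ± 7.21 and 30.5 ± 8.47 CPM (0.97; limma adjusted p = 0.953). Mcm2, a helicase subunit, was the 1 target with a negative fold change, at 18.7 ± 5.45 and 17.99 ± 4.03 CPM (-0.033; limma adjusted p = 0.989). The tumours were collected at a time after dosing that is not given. Markers of other cells also varied, with the summed haematopoietic level at 1366 to 96690 CPM with vehicle and 1804 to 8517 CPM with palbociclib. Within that list Gata1 was low in both groups, at 0 to 0.355 CPM with vehicle and at 0 in all 5 palbociclib tumours. The part of such cells in the differences of the E2F targets was not tested.

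**Figure D5:**
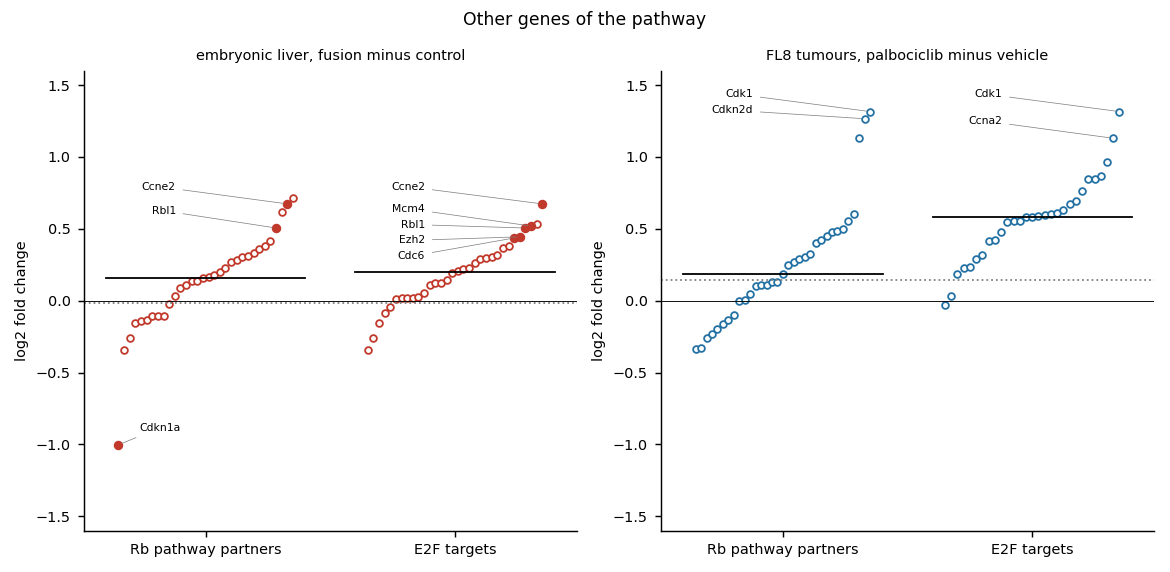
Log2 fold changes of the other pathway genes, each point 1 gene in rising order, for livers (left) and tumours (right), with black lines at each list's median, dotted lines at the median of all genes and filled points for an adjusted p under 0.05. In livers 5 E2F targets are filled above 0 and Cdkn1a is filled as the lowest point, and in tumours no point is filled while 28 of 29 E2F targets lie above 0.

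Across libraries, likeness was measured as Pearson's r of log2 levels, given as a description because libraries share depth and composition. Over 9 embryo libraries and 10028 genes of at least 5 CPM, the genes most like Ccnd1 were Serpinc1 (r = 0.952), Stxbp6 (r = 0.939) and Slc22a4 (r = 0.928). Over 10 tumours and 10065 genes they were Hyal1 (r = 0.941), Borcs8 (r = 0.926) and Med28 (r = 0.914). Among the members themselves, the closest pair in livers was Cdk4 and Cdkn2c (r = 0.832), and Ccnd3 was closest to Ccne1 (r = 0.735). Ccne1 also moved with the ribosomal split, since it was at 45.9 to 51.4 CPM in the 4 libraries with the high share and at 32.7 to 43.9 CPM in the other 5. In tumours the closest pairs were Ccnd3 and Cdkn1b (r = 0.859) and Cdk6 and Cdk2 (r = 0.820), and Ccnd1 was closest to Ccne1 (r = 0.735).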

How the data were processed

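For the 9 livers (poly-A RNA) the authors deposited unnormalized counts by symbol, with no gene under 47 counts in sum, per the file headers and the labels. The tumour files hold CPM deposited by the authors for total RNA of 10 tumours, per the file headers, and 100% of values were whole multiples of 1 read within 0.01, so reads could be recovered. The submitters' processing notes name STAR 2.5.1b and DESeq2 for embryos, cutadapt 2.10, HISAT2, featureCounts, DESeq2 and R 4.1.2 for tumours, and the build mm10 for both. Groups came from the genotype and treatment labels. Embryo counts were tested with edgeR 4.0.16 in R 4.3.3 (quasi-likelihood, TMM, filterByExpr), and tumours with limma 3.58.1 (trend) on log2(CPM + 1), where mean CPM was 1 or more. P-values were Benjamini-Hochberg adjusted over all genes, with a threshold of 0.05. Both fits were tested on simulated counts in which 200 genes changed 4-fold and every gene had the same spread between libraries. Changes as small as those of the members were not simulated. Alternatives included DESeq2 1.42.0, other scalings and filters, covariates, subsets and leaving out each library. The members and lists were chosen with earlier results of these data known. All members were named, then list genes past the threshold, or else 3 of smallest p per direction. GENCODE M21 gave a symbol for 17469 of 17606 tumour IDs, exon lengths and coordinates. The floor of 3 counts is 0.0658 to 0.392 CPM in embryos and 0.0695 to 1.01 CPM in tumours and covers counting error only. In 36 replicate pairs chi-square per degree of freedom was at least 13.1, so no pair read as 1 library sequenced again. Each library was counted as 1 replicate, though that measure cannot tell whether libraries share an animal or litter. Tumour numbers were not used as pairs. Series text that speaks of saline injections differs from the labels, which were followed.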

Additional observations from a re-analysis of the deposited data

Results flagged for a closer look

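A screen of 104 groups of 4 or 5 libraries for a library far from the others found 2. Chance gives about 1 in 20, so the 2 are no more than chance would give. Ccnd2 stood at 11.99 CPM in vehicle tumour 1, against 0 to 3.33 CPM in the other 4 vehicle tumours. That library also had 46.6% mitochondrial counts. Without mitochondrial genes Ccnd2 was at 22.45 CPM in vehicle tumour 1, against 0 to 3.41 CPM in the other 4 vehicle tumours. The cause of the high Ccnd2 value was not tested. Cdkn2a, the INK4 inhibitor gene from the list of Rb pathway partners, stood at 11.2 CPM in palbociclib tumour 5, against 5.02 to 6.38 CPM in the other 4 palbociclib tumours.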

How the results depend on the processing

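The embryo comparison called 1704 genes and 1 member. It called 4345 genes and 2 members with the ribosomal split as a covariate. Within the 4 libraries with the high ribosomal protein share it called 2589 genes and 2 members, and 2950 genes within the other 5. With sex as a covariate it called 1284 genes and 0 members. DESeq2 called 2489 genes. Leaving out 1 library gave 969 to 1581 genes and 0 to 1 member. In the tumours 0 genes and 0 members were called under 18 of the 19 alternatives run, and DESeq2 on recovered reads called 8 genes. Same-numbered tumours did not deviate together (r of -0.32 to 0.0022, none best with its own number), and with the replicate block 0 genes were called. Some signs turned, none of them on a called member. In livers Cdkn1b turned to 0.0065 with DESeq2's size factors, 0.0073 with DESeq2, 0.018 with no filter and 0.067 within the 4 high-share libraries, where Ccnd1 was 0.021 and Ccne1 -0.0065; Ccnd3 was 0.069 within the other 5. Leaving out 1 library gave -0.070 to 0.048 for Cdkn1b, -0.20 to 0.058 for Ccnd3 and -0.0042 to 0.15 for Ccne1. In tumours Ccnd3 turned to -0.098 with TMM factors, -0.095 without mitochondrial genes, -0.15 with edgeR, -0.17 with DESeq2 and -0.17 without vehicle tumours 1 and 5 together. Ccnd2 turned to -0.58 with edgeR and -0.59 with DESeq2, and Cdkn1b to -0.0026 with edgeR, -0.018 with DESeq2 and -0.15 without vehicle tumours 1 and 5, which also turned Cdk6 to -0.097. Leaving out 1 tumour gave -0.27 to 0.10 for Cdk2, -0.21 to 0.72 for Ccnd2 and -0.070 to 0.23 for Ccnd3. The cause of these turns was not tested. A filter at a mean of 10 CPM left no tumour value for Ccnd2, Cdk6 and Rb1. Of the 32 Rb pathway partners tested in livers, 3 were called in the comparison as reported, 5 by DESeq2, 8 with the ribosomal covariate and 9 within the 4 high-share libraries. In those fits, in that order, 1704 of 13316, 2489 of 13549, 4345 of 13316 and 2589 of 12930 genes were called over all. Of the 32 E2F targets 5 were called as reported, and 9 with the ribosomal covariate. Vehicle tumour 5, at 2955729 reads, limits low members there.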
